A study of Homo sapiens with 30 samples.

Results

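Interferon-stimulated genes are the genes that cells transcribe at higher levels when interferons or viral RNA are sensed. The group described here consists of 39 named genes, all of which were found among the 23710 gene symbols of the deposited tables and were taken by symbol, not by any measured value. MR49F cells are prostate cancer cells obtained from LNCaP cells that grew in castrated mice under enzalutamide, and they carry the F877L mutation of the androgen receptor in heterozygous form. MR49F cells were maintained in 10 μM enzalutamide, and all cells then spent 96 h without it before the first change of medium, so the MR49F vehicle groups are also groups withdrawn from enzalutamide. V16D cells are the parental castration-resistant LNCaP derivative. In full serum (RPMI-1640 with fetal bovine serum), V16D and MR49F cells were given DMSO vehicle or 10 μM enzalutamide, an androgen receptor antagonist. In charcoal-stripped serum, from which steroids are depleted, MR49F cells were kept for 72 h and then given vehicle, 10 μM enzalutamide, 1 nM dihydrotestosterone (DHT, the natural androgen), 500 nM JQ-1 (which blocks the bromodomains of BET proteins) or either ligand combined with JQ-1. All treatments lasted 24 h, and each of the 10 conditions had 3 replicates, which makes 30 RNA-seq samples. Each line is a single resistant or parental line, so a difference between them cannot be told apart from a difference between clones. The methods call the replicates biological and the labels describe plating in triplicate. No source used here says if they came from separate cultures, and the p-values measure the spread between these samples, which may be technical.

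Type I interferons bind the receptor chains IFNAR1 and IFNAR2, and the kinases JAK1 and TYK2 are then activated. STAT2 and IRF9 act in the factor ISGF3, which binds the interferon-stimulated response element, a pair of GAAA cores spaced by any pair of bases, in promoters of the genes described here. The products sense viral RNA, block entry, translation or release of viruses, or attach ISG15, a ubiquitin-like protein, to other proteins.

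The response element was looked for in the members' promoters. RefSeq promoter sequences of 250 bases before to 50 bases after the gene start (GRCh38.p14) were at hand for 30 of the 39 members. The letters GAAANNGAAA, on either strand, occurred in 21 of these 30 promoters (70%) and in 3.65% of all 27305 promoters. The interferon gamma type letters TTCNNNGAA, which read the same on both strands, occurred in 8 of the 30 (26.7%) and in 7.88% of all promoters. These windows are the stretches around the element in 6 members with lower values under JQ-1 in 3 settings and in IFI6, with higher values, and the capitals mark GAAANNGAAA or its reverse complement.
ISG15: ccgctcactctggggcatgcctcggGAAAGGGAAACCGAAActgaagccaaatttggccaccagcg
ISG20: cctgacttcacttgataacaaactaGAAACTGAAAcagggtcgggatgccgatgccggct
IFITM3: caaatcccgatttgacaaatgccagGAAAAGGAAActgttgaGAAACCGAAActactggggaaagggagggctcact
PARP14: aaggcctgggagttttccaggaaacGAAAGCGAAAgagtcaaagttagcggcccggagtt
DTX3L: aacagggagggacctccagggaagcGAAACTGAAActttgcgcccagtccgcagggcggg
TRIM14: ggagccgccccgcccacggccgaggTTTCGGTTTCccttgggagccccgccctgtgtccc
IFI6: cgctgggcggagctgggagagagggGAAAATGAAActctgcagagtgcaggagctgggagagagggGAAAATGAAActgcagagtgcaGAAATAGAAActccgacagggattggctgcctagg
They lie at chr1:1013359-1013424 (plus strand), chr15:88638922-88638981 (plus strand), chr11:320861-320937 (minus strand), chr3:122680785-122680844 (plus strand), chr3:122564307-122564366 (plus strand), chr9:98119214-98119273 (minus strand) and chr1:27672251-27672373 (minus strand), and each is written along the strand of its gene. The element started 113 and 107 bases before the gene start in ISG15, where the copies overlap, and 6 bases before it in DTX3L. These letters were not in the window of STAT2, PARP9, IRF1, IRF9, IFI35, OAS1, DDX58, RSAD2 or UBE2L6. The start of DTX3L lies within the overlapping PARP9 gene, and its element fell outside the fixed window of PARP9.

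Between 13170504 and 21154962 reads per sample fell on genes in full serum, and between 982130 and 1813262 in charcoal-stripped serum, where 5.13% to 7.664% of reads were assigned to genes. Full serum was therefore tested on counts, and stripped serum on FPKM, fragments relative to the length of a transcript and the size of a library. FPKM are relative to each library's own total. Of the luminal prostate markers, 10 of 10 were at 1 FPKM or more in every condition. Of 6 leukocyte markers only CD68 reached 1 FPKM in a condition, of 5 fibroblast markers only COL1A1 did, and none of 3 endothelial or 3 basal markers did. The summed leukocyte markers had means of 1.51 to 6.03 FPKM and the summed fibroblast markers of 0.772 to 1.89 FPKM across conditions, and their part in the results was not tested. In such bulk samples fewer cells with a transcript and less of it per cell cannot be told apart. Replicate 1 of the MR49F vehicle samples in full serum stood apart, with a chi-square per degree of freedom of 9.27 and 10.85 against the other replicates of its group, which differed from each other by 2.16.

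The interferon-stimulated genes covered a wide range of levels. In 13 members the mean was at or above 1 FPKM in each of the 10 conditions: STAT2, IRF3, IRF7, IRF9, ISG15, USP18, IFI6, IFITM3, EIF2AK2, PARP9, DTX3L, TRIM14 and TRIM21. In another 13 it stayed under 1 FPKM throughout, including the classical interferon response genes IFI27, IFI44L, IFIT1, IFIT2, OAS1, OAS2, OASL, MX2, BST2 and RSAD2, besides DDX58, SAMD9 and UBE2L6. The remaining 13 lay on both sides. On the per-length FPKM scale the highest single values belonged to IFITM3, which restricts virus entry, and to ISG15, but with JQ-1 the mean of STAT2 was above both and in V16D cells that of PARP9 was above ISG15. IFITM3 ranged over the 30 samples from 12.4 to 50.3 FPKM and ISG15 from 9.79 to 50.4 FPKM. The 6 interferon genes of the pathway list (IFNA1, IFNB1, IFNE, IFNG, IFNK and IFNL1) did not exceed 0.127 FPKM in any sample.

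**Figure D1:**
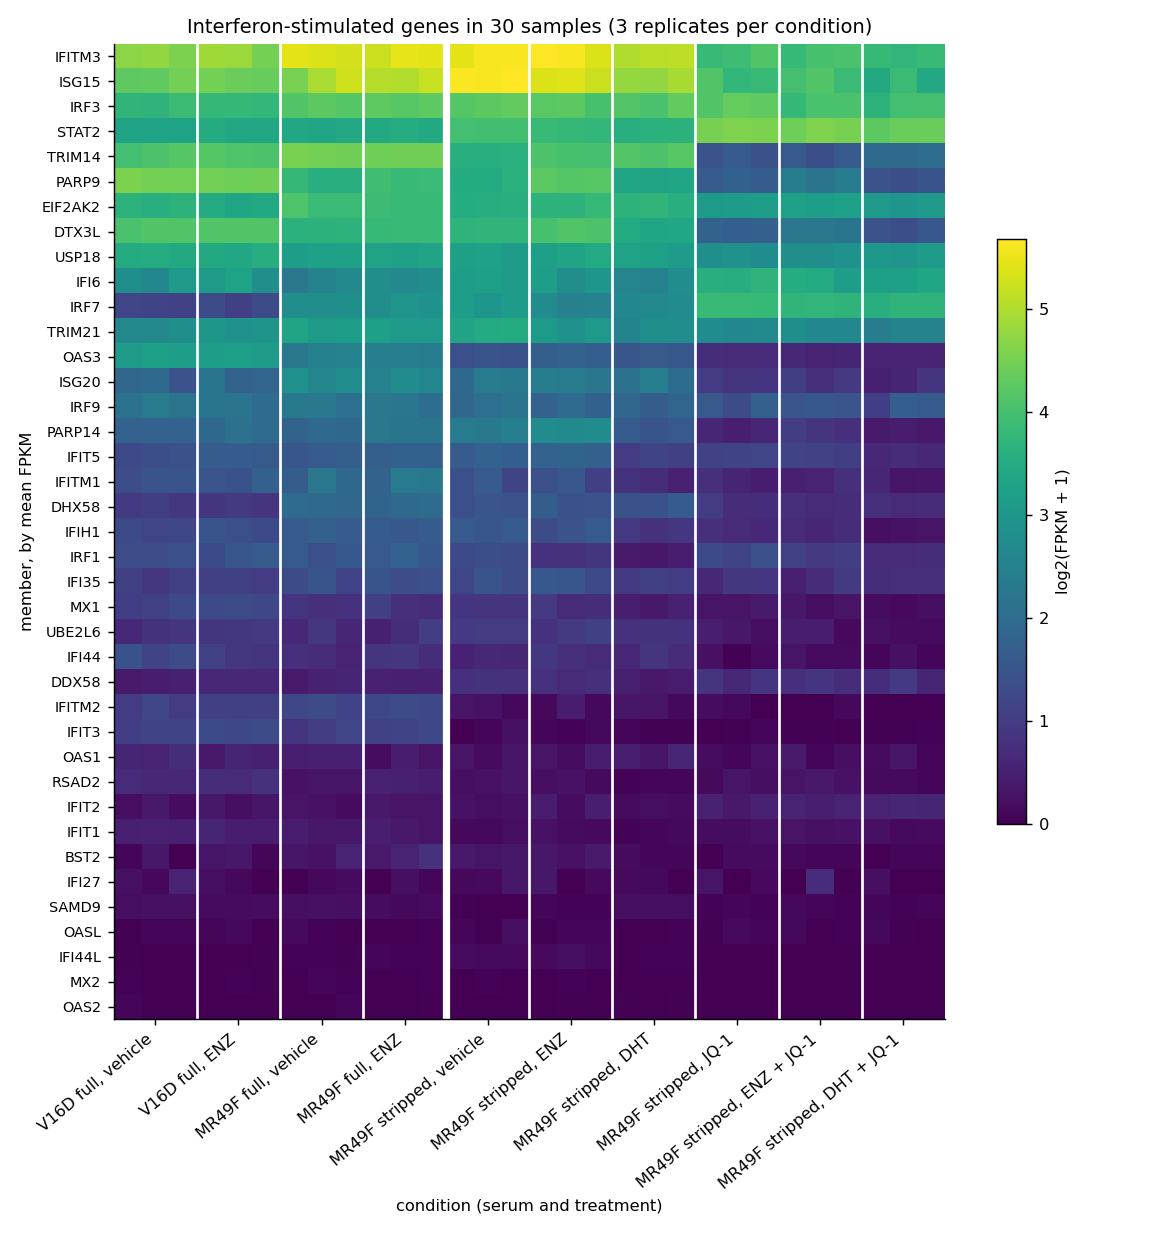
Levels of the 39 interferon-stimulated genes as log2(FPKM + 1) (colour), with a column for each of the 30 samples in blocks of 3 replicates (full serum left of the thick line, charcoal-stripped serum right of it; ENZ, enzalutamide) and a row for each gene ordered by its mean. IFITM3 and ISG15 stand at the top, 13 genes stay under a mean of 1 FPKM in every condition, and the blocks with JQ-1 are darker for TRIM14, PARP9, DTX3L, PARP14 and ISG15 and brighter for STAT2 and IRF7.

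Some members cannot be measured cleanly. Exons of 9 members overlap a gene on the other strand, namely IRF3 with BCL2L12, IFIT2 and IFIT3 with LIPA, MX1 with TMPRSS2, EIF2AK2 with GPATCH11, RSAD2 with CMPK2, TRIM14 with NANS, and PARP9 with DTX3L. The libraries kept strand, but how the counting used strand is not given in the sources used here. IFITM1, IFITM2 and IFITM3 are near-identical paralogs, and USP18 has a near copy, so their split of reads is uncertain. IFITM1 had between 0 and 8 counts in each of the 30 samples although its FPKM reached 4.11. In every stripped-serum sample it had 0 counts.

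The comparison of MR49F with V16D cells under vehicle in full serum asked how the resistant line differs from its parent. The level of IRF7, the factor that amplifies interferon production, was higher in MR49F cells, as were those of the RNA sensors DHX58 and IFIH1, the exonuclease ISG20, IFITM3 and ISG15. The levels of RSAD2, IFI44, PARP9, OAS3, MX1 and DTX3L were lower. Of 31 members that passed the filter on low counts, 12 were higher (background 31.9% of 14013 genes tested) and 9 lower (background 31.8%). Both shares are near the background. The median log2 fold change was 0.12 over these members and -0.0049 over all genes tested. The 8 members that did not pass were IFI27, IFI44L, IFITM1, IFITM2, MX2, OAS2, OASL and BST2.

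IRF7 stood at 3.81, 3.74 and 3.37 CPM (counts scaled to library size) in V16D cells and at 16.7, 16.2 and 16.02 CPM in MR49F cells. DHX58, a regulator of RNA sensing, stood at 3.42, 3.92 and 3.13 CPM in V16D and 11.1, 10.2 and 9.49 CPM in MR49F. ISG20 stood at 2.91, 3.08 and 1.84 CPM and 7.06, 5.53 and 6.38 CPM in the same order. All 3 were higher in each MR49F sample than in each V16D sample. The log2 fold change in edgeR's quasi-likelihood test was 2.16 ± 0.10 (SE, adjusted p = 7.71e-09) for IRF7, 1.54 ± 0.12 (SE, adjusted p = 6.59e-07) for DHX58 and 1.25 ± 0.18 (SE, adjusted p = 8.76e-05) for ISG20. IFITM3, IFIH1 and ISG15 followed at 0.73, 0.73 and 0.62 on the log2 scale. ISG15 stood at 12.3, 12.2 and 14.04 CPM in V16D and 15.3, 19.9 and 24.3 CPM in MR49F, and the lowest MR49F value, in replicate 1, lay above the V16D values.

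In the other direction, RSAD2, which makes an antiviral nucleotide, stood at 2.26, 2.25 and 2.27 CPM in V16D and at 0.759, 0.564 and 0.467 CPM in MR49F cells. IFI44 stood at 3.75, 2.79 and 3.25 CPM in V16D and 1.59, 1.41 and 1.01 CPM in MR49F. Both are low, and the groups did not overlap. PARP9, an ADP-ribosyltransferase family protein that acts in a complex with the ubiquitin ligase DTX3L, stood at 105, 103 and 100.3 CPM and 64.1, 53.7 and 52.3 CPM. OAS3, which makes the oligoadenylates that activate RNase L, stood at 71.5, 76.8 and 72.2 CPM and 37.1, 41.7 and 42.6 CPM. The values of these abundant members were also separate, and edgeR gave log2 fold changes of -1.92 ± 0.24 (SE, adjusted p = 2.52e-05) for RSAD2, -1.27 ± 0.21 (SE, adjusted p = 0.000244) for IFI44, -0.87 ± 0.07 (SE, adjusted p = 6.73e-07) for PARP9 and -0.86 ± 0.06 (SE, adjusted p = 3.66e-07) for OAS3. DTX3L and MX1 were at -0.53 and -0.56. MX1 overlaps TMPRSS2, an androgen-induced gene whose counts were higher in MR49F cells (log2 fold change 0.59), and the part of that overlap in the MX1 value was not tested.

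**Figure D2:**
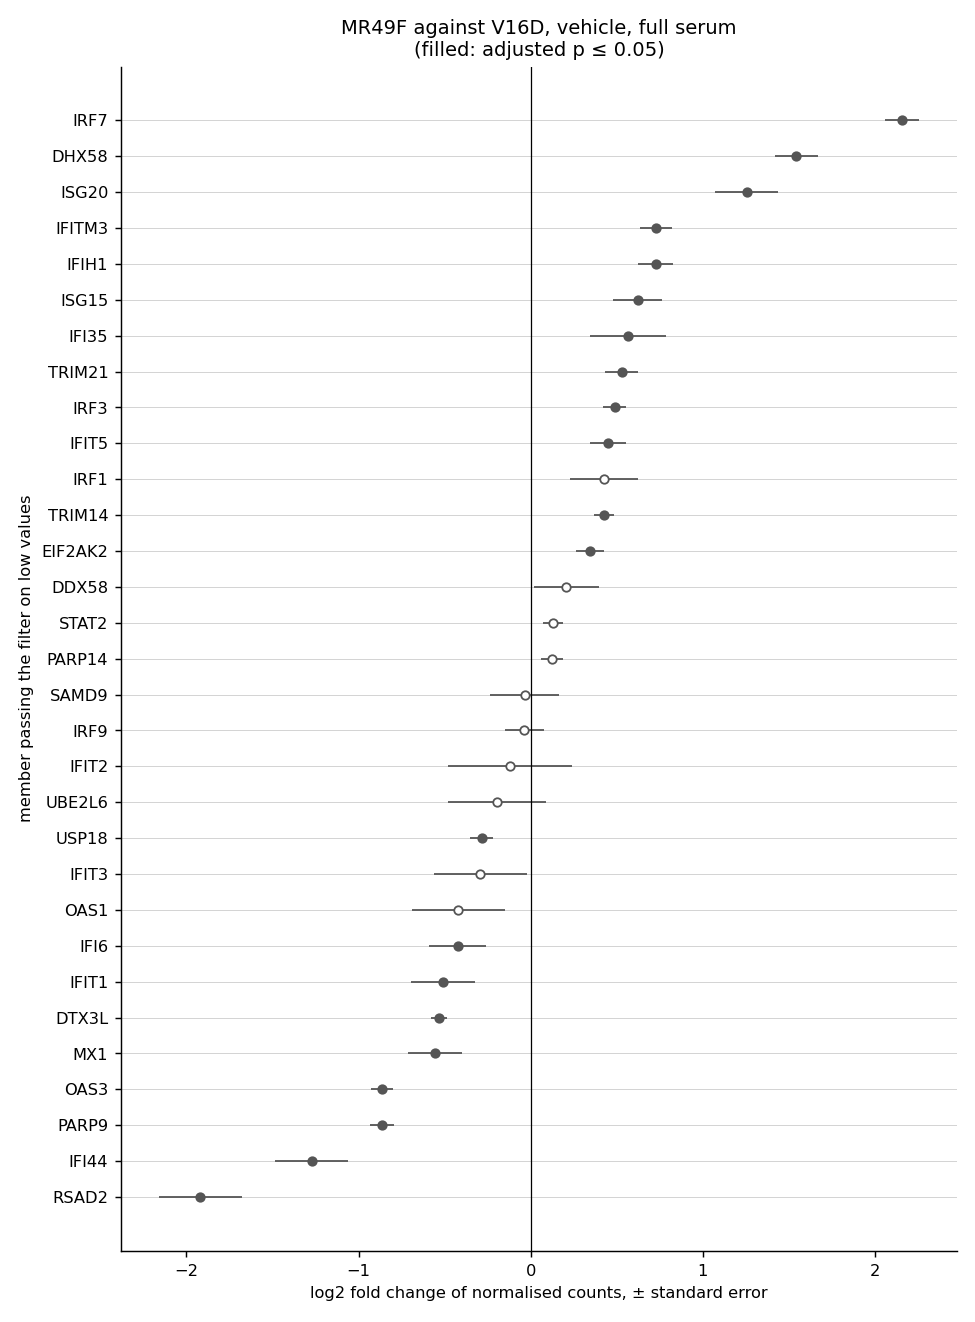
Log2 fold change of normalised counts in MR49F against V16D cells under vehicle in full serum (x axis) for the 31 interferon-stimulated genes that passed the filter on low counts (y axis). Points are estimates from edgeR with 3 replicates per line, bars are standard errors, and filled points have an adjusted p of at most 0.05, which are 12 higher genes led by IRF7 and 9 lower genes led by RSAD2.

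Of the other 40 pathway genes found, 30 were tested between the lines. In MR49F cells 11 were higher (background 31.9%) and 8 lower (background 31.8%), which is near the background. The level of TMEM173 (STING, the adaptor of DNA sensing) was higher by 2.49 and that of IKBKE, a kinase that activates IRF3 and IRF7, by 1.23 on the log2 scale. TYK2 was higher by 0.63, and IFNGR1, a chain of the interferon gamma receptor, was at -0.41.

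Enzalutamide in full serum was compared with vehicle in each line. In V16D cells 5 of the 31 members tested rose (background 18.2% of 14079 genes) and 2 fell (background 19.3%). The RNA sensor DDX58 (RIG-I) rose from 2.13, 2.37 and 2.64 CPM to 3.82, 3.64 and 3.39 CPM, and IFIT5 rose from 7.68, 8.54 and 9.01 CPM to 11.7, 11.4 and 11.01 CPM. IFI44 fell from 3.75, 2.79 and 3.25 CPM to 2.53, 1.85 and 1.75 CPM. In these genes the vehicle and enzalutamide samples did not overlap. EIF2AK2 (PKR, the kinase that halts translation when it binds double-stranded RNA) fell from 65.4, 61.6 and 64.999 CPM to 56.2, 49.7 and 54.04 CPM. The log2 fold changes in edgeR were 0.60 ± 0.18 (SE, adjusted p = 0.00288) for DDX58, 0.43 ± 0.10 (SE, adjusted p = 6.07e-05) for IFIT5, -0.65 ± 0.19 (SE, adjusted p = 0.00223) for IFI44 and -0.26 ± 0.04 (SE, adjusted p = 2.36e-08) for EIF2AK2. PARP14, TRIM21 and STAT2 rose by 0.28, 0.22 and 0.12. The median over the members tested was 0.06, against 0.0038 over all genes tested. Without enzalutamide replicate 1 the adjusted p in edgeR was 0.0868 for TRIM21 and 0.176 for STAT2. The TRIM21 call was also lost without enzalutamide replicate 3 or vehicle replicate 1 or 2, and the STAT2 call without vehicle replicate 1.

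In MR49F cells in full serum 3 of the 31 members tested rose (background 3.86% of 13927 genes) and none fell (background 4.62%), and 6 members had an unadjusted p under 0.05 in edgeR. DESeq2 called 2 members, and both rose. PARP14, an ADP-ribosyltransferase, rose from 27.01, 28.7 and 27.6 CPM to 37.9, 36.3 and 36.4 CPM, without overlap. DTX3L rose from 85.8, 83.3 and 85.6 CPM to 95.5, 96.9 and 96.6 CPM. RSAD2, near the detection limit, rose from 0.759, 0.564 and 0.467 CPM to 1.6002, 1.27 and 1.05 CPM. Each of the 3 enzalutamide samples lay above the vehicle samples for these genes, with log2 fold changes in edgeR of 0.41 ± 0.06 (SE, adjusted p = 0.00165) for PARP14, 0.19 ± 0.04 (SE, adjusted p = 0.024) for DTX3L and 1.10 ± 0.30 (SE, adjusted p = 0.0443) for RSAD2. The median was 0.03 over the members tested and 0.0095 over all genes. The calls of RSAD2 and DTX3L were lost when a single enzalutamide replicate or vehicle replicate 2 was left out, and that of RSAD2 also without vehicle replicate 3, whereas the PARP14 call was present without any single replicate. Of the pathway list 7 of 30 tested rose (background 18.2%) and 7 fell (background 19.3%) in V16D cells. In MR49F cells 2 of 30 rose (background 3.86%) and 1 fell (background 4.62%).

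The difference between the lines in the response to enzalutamide was tested itself. In 2 of 31 members tested the change was more positive in MR49F cells (background 4.19% of 14471 genes), and in none was it more negative (background 2.76%). IFI44 had a difference of 1.02 ± 0.30 (SE, adjusted p = 0.0393) between the log2 fold changes of 0.38 in MR49F and -0.65 in V16D. PARP9 had a difference of 0.30 ± 0.08 (SE, adjusted p = 0.0255), with 0.24 in MR49F and -0.07 in V16D, neither of which passed its own test. Without a single replicate the IFI44 call was kept only when MR49F vehicle replicate 1, V16D enzalutamide replicate 1 or V16D vehicle replicate 2 was the one left out. The PARP9 call was lost without MR49F enzalutamide replicate 1 or 3, MR49F vehicle replicate 2, V16D enzalutamide replicate 2 or 3, or V16D vehicle replicate 1 or 2, with adjusted p-values of 0.054 to 0.0803 in edgeR, and in limma on FPKM (adjusted p = 0.0662). With each replicate left out in turn, between 0 and 5 members passed, and 5 passed without MR49F vehicle replicate 1.

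Enzalutamide is known to be able to activate the F877L receptor. In charcoal-stripped serum KLK3 (prostate-specific antigen), a target of the receptor, rose with enzalutamide (log2 fold change 1.5) and with DHT (2.15). These comparisons share the vehicle samples. In each comparison with vehicle 22 of the 39 members passed the filter of 1 FPKM in at least 3 of 6 samples. With enzalutamide PARP9, DTX3L, PARP14, TRIM14, OAS3 and EIF2AK2 rose, and IRF7, IRF1, TRIM21, ISG15 and STAT2 fell. That is 6 higher (background 19.3% of 12178 genes) and 5 lower (background 19.3%). Among the 21 members at 1 FPKM or more in all 6 samples, 6 rose and 4 fell. The share of all genes at that level was not computed for this comparison. IRF1 reached that level in the vehicle samples only. The median log2 fold change was 0.04 over the members tested and -0.01 over all genes.

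PARP9 stood at 10.3, 10.3 and 11.4 FPKM with vehicle and at 18.1, 17.2 and 17.6 FPKM with enzalutamide. Its partner DTX3L, whose gene overlaps it head to head (PARP9 at chr3:122246771-122283424, minus strand, DTX3L at chr3:122283185-122294050, plus strand, GRCh37), stood at 12.01, 12.2 and 12.2 FPKM and 15.2, 16.5 and 16.2 FPKM. PARP14 (chr3:122399686-122449687, plus strand) stood at 4.004, 3.93 and 4.46 FPKM and 5.64, 5.62 and 5.69 FPKM. All enzalutamide samples of these 3 neighbouring genes of chromosome 3 lay above the vehicle samples. TRIM14, an adaptor of mitochondrial antiviral signalling, stood at 10.9, 10.9 and 11.1 FPKM with vehicle and 16.2, 15.3 and 15.1 FPKM with enzalutamide. The log2 fold changes of FPKM + 1 in limma were 0.67 ± 0.05 (SE, adjusted p = 1.74e-05) for PARP9, 0.37 ± 0.04 (SE, adjusted p = 0.000292) for DTX3L, 0.38 ± 0.05 (SE, adjusted p = 0.00077) for PARP14 and 0.46 ± 0.04 (SE, adjusted p = 6.26e-05) for TRIM14. A fold change on this scale understates the change of genes at low FPKM.

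The factor IRF7 stood at 7.91, 6.94 and 7.73 FPKM with vehicle and 5.71, 4.59 and 4.73 FPKM with enzalutamide. IRF1 stood at 1.41, 1.59 and 1.46 FPKM and 0.765, 0.759 and 0.8499 FPKM. ISG15 stood at 49.4, 48.5 and 50.4 FPKM and 41.005, 41.4 and 36.5 FPKM. The groups did not overlap in any of these, and limma gave -0.51 ± 0.08 (SE, adjusted p = 0.00107) for IRF7, -0.47 ± 0.07 (SE, adjusted p = 0.000751) for IRF1 and -0.31 ± 0.05 (SE, adjusted p = 0.00198) for ISG15. TRIM21, a cytosolic antibody receptor and ubiquitin ligase, was at -0.39 and STAT2 at -0.18. Tested on the counts instead, 3 members passed in edgeR, all of them higher, so that none of the 5 lower members passed there. None of 18 passed in DESeq2, where 5 had an unadjusted p under 0.05.

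With DHT more members fell than rose. Of the 22 members tested, 15 fell (background 43.2% of 12180 genes) and 1 rose (background 28.9%), and the median log2 fold change was -0.33 against -0.08 over all genes tested. IRF1, ISG15, PARP14, IFITM1, TRIM21, IFIH1, IFIT5, IFI6 and IFITM3 were the members with the most negative values, and TRIM14 was the member that rose. Among the 17 members at 1 FPKM or more in all 6 samples, 10 fell and 1 rose, against 41.3% and 29.7% of all genes at that level. The other 5 (IRF1, IFI35, IFIH1, IFIT5 and IFITM1) reached that level in some of the samples only. With a change of at least 1.5-fold, 7 members fell (background 12.6%), among them IRF1, IFIH1, IFIT5 and IFITM1 from these 5. IFITM1 had 0 counts in each of these samples, so its fall rests on FPKM alone. Tested on the counts, 2 members rose and 4 fell in edgeR, and 1 rose and 3 fell in DESeq2. With quantile normalization 4 rose and 13 fell.

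ISG15 fell from 49.4, 48.5 and 50.4 FPKM with vehicle to 26.3, 26.1 and 29.9 FPKM with DHT. IRF1, which drives antigen presentation genes and others, fell from 1.41, 1.59 and 1.46 FPKM to 0.337, 0.291 and 0.3504 FPKM. PARP14 fell from 4.004, 3.93 and 4.46 FPKM to 2.15, 1.79 and 2.02 FPKM. No DHT sample reached a vehicle sample in these genes, and limma gave -0.83 ± 0.05 (SE, adjusted p = 2.06e-06) for ISG15, -0.91 ± 0.06 (SE, adjusted p = 2.43e-06) for IRF1 and -0.78 ± 0.07 (SE, adjusted p = 1.03e-05) for PARP14. IFIH1 (MDA5), a sensor of long double-stranded RNA, fell from 1.998, 1.87 and 2.03 FPKM to 0.9203, 0.765 and 0.878 FPKM. IFIT5, which binds viral RNA ends, fell from 2.101, 2.47 and 2.25 FPKM to 0.997, 1.25 and 1.12 FPKM. IFITM3 fell from 42.5, 48.5 and 48.4 FPKM to 31.2, 33.2 and 33.7 FPKM. These groups were also separate, with log2 fold changes of -0.68, -0.62 and -0.49. TRIM14 rose from 10.9, 10.9 and 11.1 FPKM to 16.9, 15.97 and 17.5 FPKM, a log2 fold change of 0.57 ± 0.04 (SE, adjusted p = 5.6e-06) in limma. IRF3, USP18, ISG20, DHX58, OAS3 and EIF2AK2 did not pass, with values between -0.08 and 0.12.

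**Figure D3:**
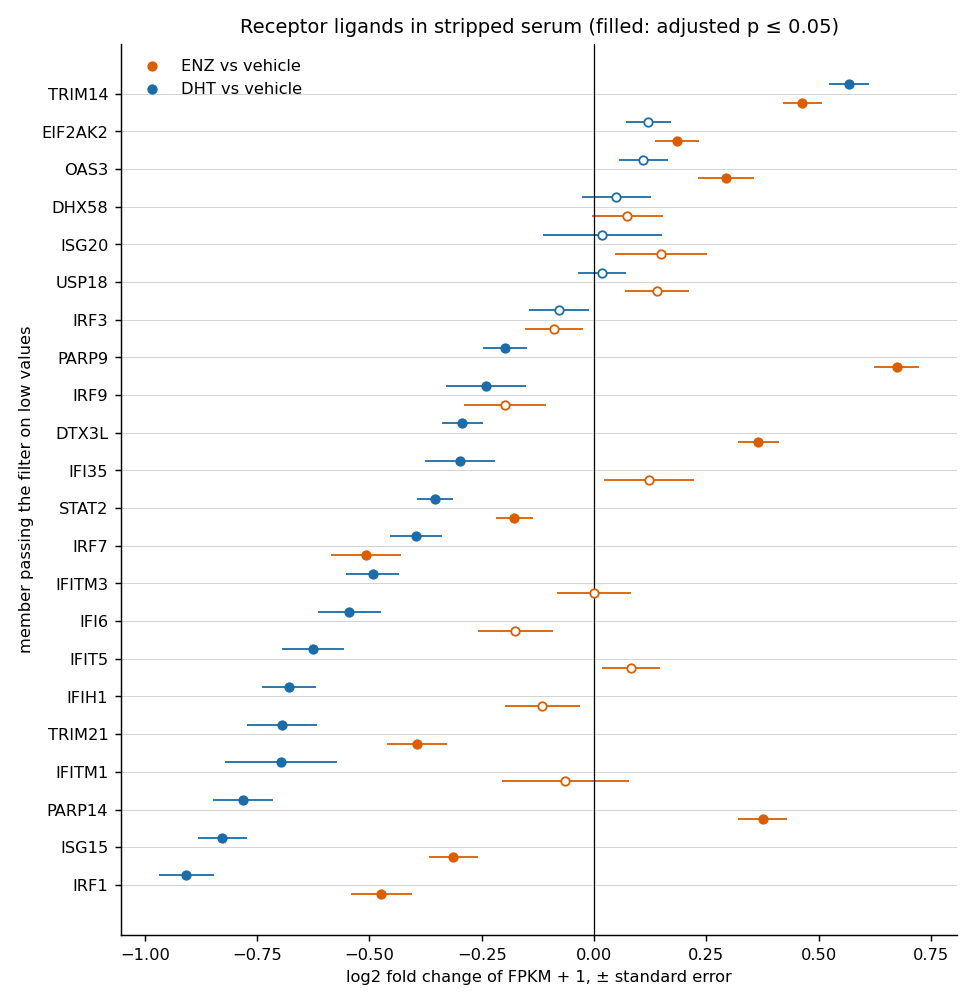
Log2 fold change of FPKM + 1 (x axis) in MR49F cells in stripped serum with enzalutamide (ENZ, orange) and with DHT (blue), each against the same 3 vehicle samples, for the 22 interferon-stimulated genes that passed the filter (y axis). Bars are standard errors from limma and filled points have an adjusted p of at most 0.05. PARP9, DTX3L and PARP14 lie right of 0 with enzalutamide and left of 0 with DHT, while TRIM14 lies right of 0 with both.

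DHT was also compared with enzalutamide directly. Of 21 members tested 13 were lower with DHT (background 36.5% of 12029 genes) and none was higher (background 20.9%), at a median of -0.30 against -0.07 over all genes. At an unadjusted p under 0.05 the count was also 13, and on the counts edgeR and DESeq2 each called 1 member higher and 3 lower. With quantile normalization 1 was higher and 9 were lower. Among the 17 members at 1 FPKM or more in all 6 samples, 9 were lower with DHT and 0 higher. The share of all genes at that level was not computed for this comparison. The other 4 (IFI35, IFIH1, IFIT5 and IFITM1) reached that level in some of the samples only. PARP14 differed most, with 5.64, 5.62 and 5.69 FPKM with enzalutamide and 2.15, 1.79 and 2.02 FPKM with DHT. PARP9 stood at 18.1, 17.2 and 17.6 FPKM with enzalutamide and 9.27, 8.97 and 9.303 FPKM with DHT. In limma the differences were -1.16 ± 0.06 (SE, adjusted p = 5.85e-07) for PARP14 and -0.87 ± 0.04 (SE, adjusted p = 4.36e-07) for PARP9, followed by IFIT5 at -0.71 and DTX3L at -0.66. TRIM14 differed by 0.10 ± 0.05 (SE, adjusted p = 0.0988) and IRF7 by 0.11 ± 0.07 (SE, adjusted p = 0.227), which did not pass. In the pathway list 16 of 28 genes tested fell (background 43.2%) and 5 rose (background 28.9%) with DHT against vehicle. With enzalutamide 7 of 28 fell (background 19.3%) and 0 rose (background 19.3%). IFNGR2, a chain of the interferon gamma receptor, stood at 18.2, 20.4 and 19.8 FPKM with vehicle, 16.6, 16.4 and 16.8 FPKM with enzalutamide and 9.77, 9.82 and 9.43 FPKM with DHT. JAK2, a kinase of that receptor, stood at 10.3, 10.1 and 10.3 FPKM, 8.75, 9.16 and 9.296 FPKM and 5.28, 5.44 and 4.93 FPKM in that order. Both were lowest with DHT, without overlap with either other group. IFNGR1, also a chain of that receptor, was highest with DHT. It stood at 8.14, 7.95 and 8.46 FPKM, 6.97, 7.25 and 7.74 FPKM and 9.88, 9.89 and 8.47 FPKM in the same order. In the direct test of DHT against enzalutamide 4 of 28 genes of the pathway list were higher (background 20.9%) and 11 lower (background 36.5%).

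JQ-1 was given to ask what BET proteins contribute to expression in these cells. Compared with vehicle, 17 of 22 members tested fell (background 42.6% of 12203 genes) and 3 rose (background 32.5%), at a median of -0.67 against -0.06 over all genes tested. TRIM14, DTX3L, PARP9, PARP14, ISG15, IFITM3 and ISG20 fell by more than 1 on the log2 scale, while the transcription factors STAT2 and IRF7 and the membrane protein IFI6 rose. With a change of at least 1.5-fold 12 members fell (background 15.3%). Among them were ISG20, IFIH1, IFITM1, OAS3, DHX58 and PARP14, which were under 1 FPKM in every sample given JQ-1 alone. The 1.5-fold count was not made for members at 1 FPKM or more in all samples. Of the 15 members at 1 FPKM or more in all 6 samples, 10 fell and 3 rose, against 41% and 33.4% of all genes at that level. ISG20, IFI35, IFIH1, IFITM1, OAS3, DHX58 and PARP14 passed the filter without being at that level in every sample. Tested on the counts, 12 members passed in edgeR and also 12 in DESeq2. When any 1 of the vehicle replicates was left out, 13 members passed in limma, and 15 passed the filter.

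TRIM14 (chr9:100831557-100881504, minus strand, GRCh37) fell from 10.9, 10.9 and 11.1 FPKM with vehicle to 1.74, 2.103 and 1.67 FPKM with JQ-1. DTX3L fell from 12.01, 12.2 and 12.2 FPKM to 2.49, 2.24 and 2.36 FPKM. PARP9 fell from 10.3, 10.3 and 11.4 FPKM to 2.098, 2.38 and 2.17 FPKM. Every JQ-1 sample of these genes was below every vehicle sample, and limma gave -2.08 ± 0.06 (SE, adjusted p = 3.56e-08) for TRIM14, -1.97 ± 0.04 (SE, adjusted p = 1.02e-08) for DTX3L and -1.86 ± 0.06 (SE, adjusted p = 4.13e-08) for PARP9. ISG15 (chr1:936518-949920, plus strand) fell from 49.4, 48.5 and 50.4 FPKM to 16.7, 12.6 and 13.2 FPKM. IFITM3 (chr11:319676-329475, minus strand) fell from 42.5, 48.5 and 48.4 FPKM to 13.5, 14.1 and 16.6 FPKM. PARP14 fell from 4.004, 3.93 and 4.46 FPKM to 0.532, 0.402 and 0.537 FPKM. The groups were again separate, with -1.74 ± 0.09 (SE, adjusted p = 6e-07) for ISG15, -1.60 ± 0.08 (SE, adjusted p = 5.29e-07) for IFITM3 and -1.78 ± 0.07 (SE, adjusted p = 1.1e-07) for PARP14. ISG20 fell from 2.78, 3.98 and 3.88 FPKM to 0.995, 0.837 and 0.817 FPKM, and IFIH1 from 1.998, 1.87 and 2.03 FPKM to 0.719, 0.616 and 0.575 FPKM.

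STAT2, a subunit of ISGF3, rose from 14.7, 14.7 and 14.6 FPKM with vehicle to 21.9, 22.9 and 22.6 FPKM with JQ-1. IRF7 rose from 7.91, 6.94 and 7.73 FPKM to 13.5, 13.2 and 13.05 FPKM. IFI6 rose from 8.08, 8.21 and 7.69 FPKM to 10.9, 10.6 and 11.9 FPKM. The vehicle samples were below the JQ-1 samples in each, and limma gave 0.58 ± 0.03 (SE, adjusted p = 1.09e-06) for STAT2, 0.74 ± 0.05 (SE, adjusted p = 2.81e-06) for IRF7 and 0.43 ± 0.05 (SE, adjusted p = 6.72e-05) for IFI6. IRF3 and IRF1 did not pass, with -0.0024 ± 0.06 (SE, adjusted p = 0.97) and -0.05 ± 0.07 (SE, adjusted p = 0.579). IRF9, which acts with STAT2 in ISGF3, was among the members that fell. It stood at 2.69, 3.21 and 3.57 FPKM with vehicle and 1.99, 1.51 and 2.36 FPKM with JQ-1.

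**Figure D4:**
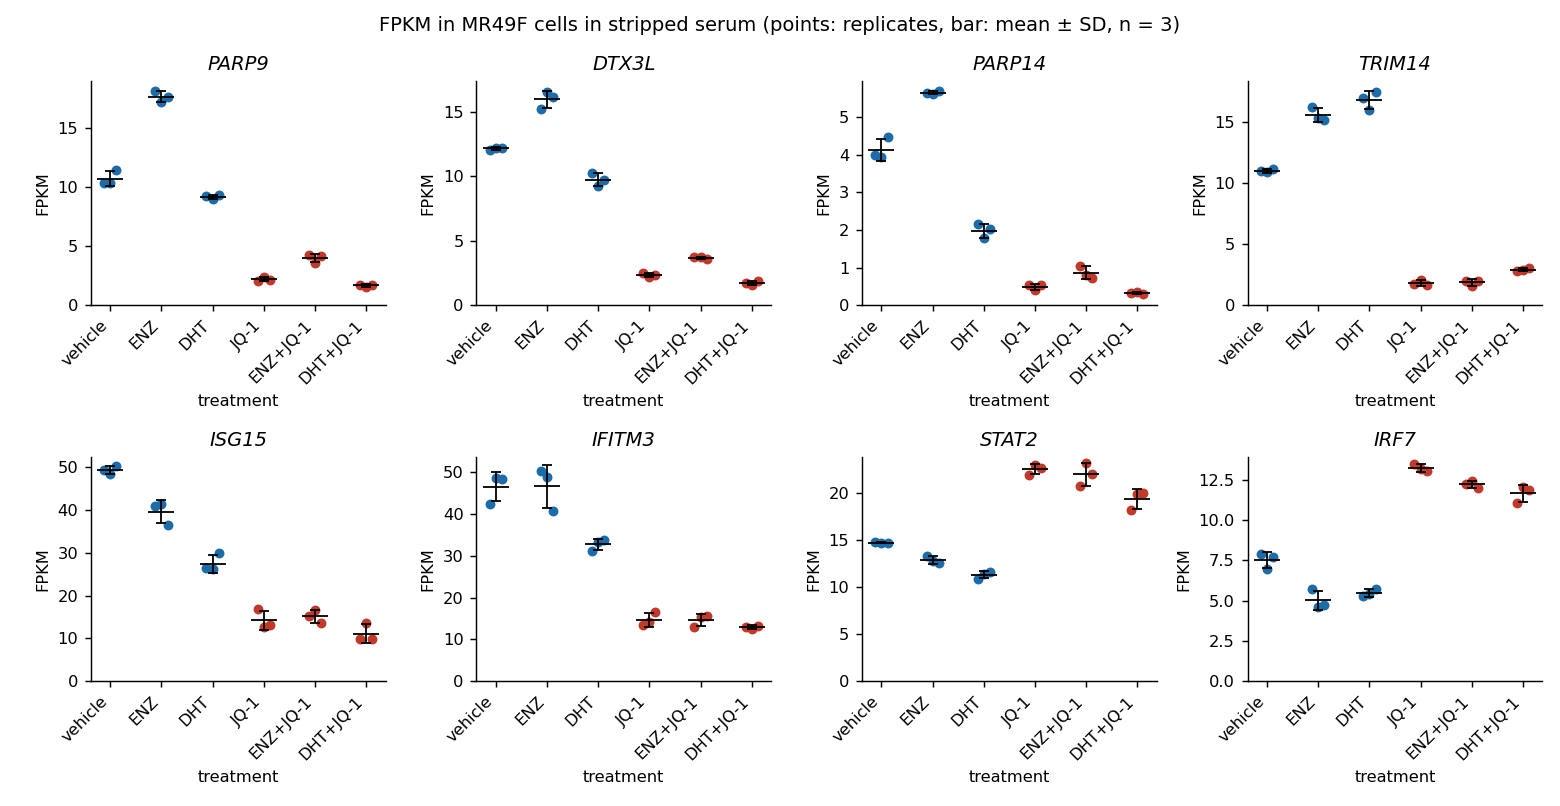
FPKM (y axis) of PARP9, DTX3L, PARP14, TRIM14, ISG15, IFITM3, STAT2 and IRF7 in MR49F cells in stripped serum for 6 treatments (x axis; ENZ, enzalutamide). Points are the 3 replicates of each treatment, blue without and red with JQ-1, and bars are mean ± SD. In the first 6 genes all samples with JQ-1 lie below all samples without it, and in STAT2 and IRF7 they lie above them.

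JQ-1 was also added to enzalutamide and to DHT, and these comparisons share no samples with each other or with JQ-1 against vehicle. With enzalutamide present 17 of 21 members tested fell (background 44.4% of 12148 genes) and 3 rose (background 31.2%), with a median of -0.72 against -0.08 over all genes, and 13 fell by at least 1.5-fold (background 17.7%). With DHT present 13 of 17 members tested fell (background 43.3% of 11856 genes) and 3 rose (background 35.5%), with a median of -0.76 against -0.05, and 10 fell by at least 1.5-fold (background 19.2%). At 1 FPKM or more in all 6 samples were 14 members with enzalutamide, of which 10 fell and 3 rose, against 43.2% and 31.8% of all genes at that level. With DHT there were 13, of which 9 fell and 3 rose, against 42.3% and 35.9%. The 1.5-fold counts include members outside these, namely ISG20, OAS3, DHX58 and PARP14 with either ligand. With enzalutamide they also include IFI35, IFIH1 and IFITM1. These counts were not made for members at that level alone. On the counts 10 members passed in edgeR and 9 in DESeq2 with enzalutamide, and 10 in each with DHT. When any 1 of the replicates given DHT alone was left out, 10 members passed in limma with DHT, of 13 tested.

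PARP9 stood at 4.24, 3.58 and 4.15 FPKM with enzalutamide and JQ-1 and at 1.74, 1.56 and 1.76 FPKM with DHT and JQ-1. DTX3L stood at 3.75, 3.76 and 3.597 FPKM and 1.76, 1.56 and 1.898 FPKM in the same order. TRIM14 stood at 2.02, 1.57 and 2.03 FPKM and 2.84, 2.88 and 3.07 FPKM. All were below the samples given the same ligand alone, and in limma the change with JQ-1 was -1.90 ± 0.06 (SE, adjusted p = 2.76e-08) for PARP9, -1.85 ± 0.05 (SE, adjusted p = 1.1e-08) for DTX3L and -2.53 ± 0.07 (SE, adjusted p = 1.55e-08) for TRIM14 with enzalutamide. With DHT it was -1.92, -1.97 and -2.18. ISG15 stood at 15.2, 16.5 and 13.6 FPKM with enzalutamide and JQ-1 and 9.95, 13.6 and 9.79 FPKM with DHT and JQ-1. PARP14 stood at 1.06, 0.805 and 0.7296 FPKM and 0.339, 0.356 and 0.3098 FPKM. OAS3, at 2.28, 2.48 and 2.22 FPKM with enzalutamide alone, stood at 0.586, 0.452 and 0.499 FPKM with JQ-1 added. These were again below the ligand alone in every sample, and the log2 fold changes were -1.34 and -1.24 for ISG15, -1.84 and -1.16 for PARP14, and -1.14 and -0.99 for OAS3. IRF7 rose to 12.2, 12.4 and 12.01 FPKM with enzalutamide and JQ-1 and to 11.1, 12.05 and 11.9 FPKM with DHT and JQ-1, changes of 1.14 ± 0.07 (SE, adjusted p = 1e-06) and 0.97 ± 0.05 (SE, adjusted p = 5.17e-07). STAT2 rose by 0.73 and 0.73 and IFI6 by 0.39 and 0.64, in the same order. The IFI6 samples with enzalutamide alone overlapped those with JQ-1 added, at 8.06, 6.03 and 6.94 FPKM and 10.4, 10.1 and 8.03 FPKM.

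A set of 17 members was tested in all 3 JQ-1 comparisons. Of these, 12 fell in each (ISG15, ISG20, IFITM3, OAS3, DHX58, EIF2AK2, PARP9, PARP14, DTX3L, TRIM14, TRIM21 and USP18), where 32.2% of the 11627 genes tested in all 3 fell in each. STAT2, IRF7 and IFI6 rose in each, as did 25% of genes. ISG20, OAS3, DHX58 and PARP14 passed the filter through the samples without JQ-1. Of the 13 members at 1 FPKM or more in all samples of these comparisons, 8 fell and 3 rose in each, against 31.2% and 25% of 10669 genes at that level. Among the 12 lower members 10 had a promoter sequence, of which 9 held GAAANNGAAA and PARP9 did not. Among the higher members IFI6 held it 3 times and STAT2 did not, and IRF7 had no entry. Of all members with a promoter sequence 21 of 30 (70%) held it, and a link between the element and JQ-1 was not tested. USP18, the protease that removes ISG15, changed by -0.37, -0.48 and -0.18 with vehicle, enzalutamide and DHT.

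**Figure D5:**
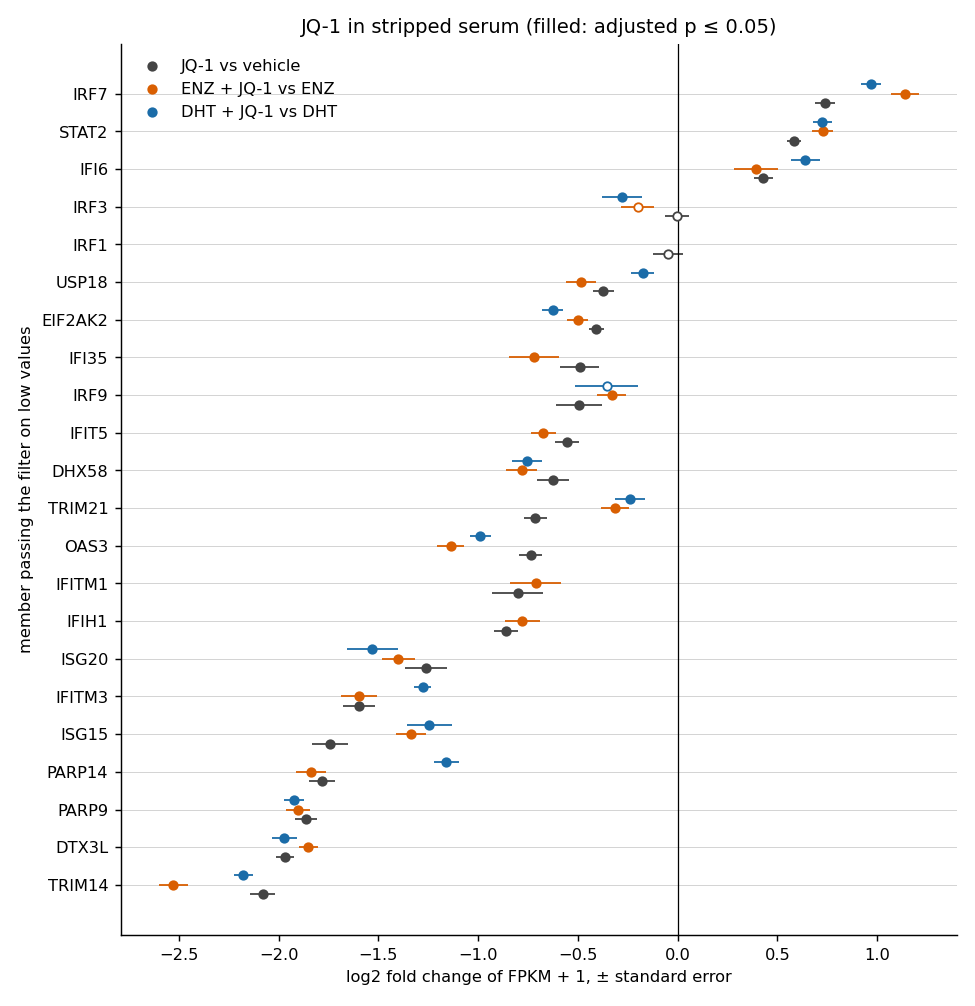
Log2 fold change of FPKM + 1 (x axis) with JQ-1 in MR49F cells in stripped serum, against vehicle (grey), with enzalutamide (ENZ, orange) and with DHT (blue), for the interferon-stimulated genes that passed the filter (y axis). Bars are standard errors from limma, and filled points have an adjusted p of at most 0.05. TRIM14, DTX3L, PARP9 and ISG15 lie at or below -1.24 in each, and IRF7, STAT2 and IFI6 lie right of 0 in each.

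Whether a ligand altered the change with JQ-1 was tested as an interaction, and these tests share the vehicle and JQ-1 samples. With enzalutamide 3 of 22 members tested had a more positive change (background 7.55% of 12454 genes) and 2 a more negative change (background 11.6%), against 19.2% of genes in either direction. TRIM14 fell further with enzalutamide present by a difference of -0.45 ± 0.10 (SE, adjusted p = 0.0083) in limma, and OAS3 by -0.40 ± 0.08 (SE, adjusted p = 0.00499). ISG15 and TRIM21 fell less, with differences of 0.41 and 0.40, and IRF7 rose further by 0.40. The ISG15 call was kept in limma only when JQ-1 replicate 1 or replicate 3 of enzalutamide with JQ-1 was the one left out. In the other 10 of 12 fits without a replicate its adjusted p was 0.0585 to 0.108, and it was 0.094 without the filter, 0.054 on log2(FPKM + 0.1) and 0.0839 with all groups in a single fit. With DHT 8 of 22 had a more positive change (background 25% of 12469 genes) and 2 a more negative change (background 23%), against 48% of genes in either direction. PARP14 had the largest difference, 0.62 ± 0.09 (SE, adjusted p = 0.000126) in limma, followed by IFITM1 at 0.53, ISG15 at 0.50 and TRIM21 at 0.48. The IFITM1 call was lost without JQ-1 replicate 2 or 3, DHT replicate 3 or replicate 1 of DHT with JQ-1 (adjusted p of 0.0576 to 0.0818 in limma), with no filter (0.0591), on log2(FPKM + 0.1) (0.138) and with quantile normalization (0.133). The ISG15 call was lost without DHT replicate 1 or 2, JQ-1 replicate 2 or 3 or vehicle replicate 3 (0.0516 to 0.0673 in limma) and with no filter (0.0548). That of IFITM3 was lost without JQ-1 replicate 1 or 2 or vehicle replicate 2, and that of IFIH1 without DHT replicate 2 or JQ-1 replicate 2 or 3. PARP14, IFITM1, IRF1, IFIH1 and OAS3 were under 1 FPKM in each sample given DHT and JQ-1, where log2(FPKM + 1) is compressed. For IFITM1 there were also 0 counts in every stripped-serum sample. On the counts no member passed the enzalutamide interaction in edgeR or DESeq2, where 3 and 2 had an unadjusted p under 0.05. In the DHT interaction 2 passed in edgeR and 0 in DESeq2, where 4 had an unadjusted p under 0.05. On log2(FPKM + 0.1) the difference for IFIH1 was -0.16 in place of 0.24.

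The 17 members that did not pass the filter in the comparisons with vehicle were low throughout. Of these UBE2L6, the enzyme that transfers ISG15, reached the highest level and stood at 0.912, 1.02 and 0.9801 FPKM with vehicle, 0.7599, 0.965 and 1.12 FPKM with enzalutamide, 0.743, 0.772 and 0.791 FPKM with DHT and 0.394, 0.296 and 0.165 FPKM with JQ-1. MX1 stood at 0.826, 0.802 and 0.799 FPKM with vehicle, 0.388, 0.318 and 0.437 FPKM with DHT and 0.244, 0.237 and 0.335 FPKM with JQ-1. In both genes the JQ-1 samples and the DHT samples were under the vehicle samples. IFIT2 stood at 0.221, 0.1499 and 0.191 FPKM with vehicle and 0.439, 0.311 and 0.435 FPKM with JQ-1, where the JQ-1 samples were the higher ones. IFI44L stood at 0.128, 0.111 and 0.103 FPKM with vehicle and was listed at 0 in the 9 samples given JQ-1. The highest values in stripped serum of the others were 0.951 FPKM for DDX58, 0.887 FPKM for IFI44, 0.657 FPKM for IFI27, 0.538 FPKM for OAS1 and at most 0.348 FPKM for IFIT1, IFIT3, IFITM2, MX2, OAS2, OASL, BST2, RSAD2 and SAMD9. Without any filter 22 members fell (background 33.3% of 18983 genes) and 4 rose (background 22.6%) with JQ-1 against vehicle among 38.

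In the pathway list, 15 of 28 genes tested fell (background 42.6%) and 8 rose (background 32.5%) with JQ-1 against vehicle. When JQ-1 was added to enzalutamide, 14 of 28 fell (background 44.4%) and 8 rose (background 31.2%). When JQ-1 was added to DHT, 16 of 27 fell (background 43.3%) and 8 rose (background 35.5%). MYD88, the adaptor of Toll-like receptors, stood at 14.9, 15.1 and 16.4 FPKM with vehicle and 3.64, 4.38 and 3.78 FPKM with JQ-1. TMEM173 stood at 1.696, 1.504 and 1.77 FPKM and 0.0941, 0.136 and 0.132 FPKM. JAK1 rose from 1.97, 1.96 and 1.86 FPKM to 4.16, 4.04 and 4.05 FPKM. The groups were separate in all 3, and limma gave -1.74 ± 0.06 (SE, adjusted p = 1.14e-07) for MYD88, -1.24 ± 0.06 (SE, adjusted p = 6.46e-07) for TMEM173 and 0.79 ± 0.05 (SE, adjusted p = 1.19e-06) for JAK1. IRF2, a factor that binds the same element, fell from 3.86, 3.82 and 4.13 FPKM to 1.57, 2.03 and 1.63 FPKM. With enzalutamide the interaction with JQ-1 passed for 1 more positive and 0 more negative of 28 genes (background 7.55% and 11.6%). With DHT it passed for 8 and 3 of 28 (background 25% and 23%). The difference between the lines in the enzalutamide response passed for 1 of 30 genes, STAT3, which was more positive (background 4.19%).

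MR49F cells under vehicle can be set side by side in both sera, with no test. IFIT3 stood at 0.8296, 1.03 and 1.27 FPKM in full serum and 0, 0.0599 and 0.186 FPKM in stripped serum. IFITM2 stood at 1.31, 1.49 and 1.19 FPKM and 0.222, 0.217 and 0.0809 FPKM. OAS3 stood at 3.87, 4.57 and 4.71 FPKM and 1.63, 1.79 and 1.71 FPKM. Each was lower in stripped serum in every sample. ISG15 stood at 22.3, 30.2 and 37.6 FPKM in full serum and 49.4, 48.5 and 50.4 FPKM in stripped serum, where it was higher. Serum and the sets of libraries cannot be told apart here. The FPKM of all genes summed to 611911, 762467 and 800845 in these full-serum samples. In the stripped-serum samples they summed to 397238, 415801 and 411702, and the part of this in the differences was not tested. IFITM2 had only 3, 4 and 3 counts in the full-serum samples.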

How the data were processed

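Members were taken by symbol, and the members, pathway list and tests were chosen with earlier results of these data known. The authors made strand-specific poly(A) libraries, pooling wells in pairs for each replicate (the labels describe plating in triplicate), sequenced single-end reads of 50 bases, and aligned them to GRCh37 (hg19) with TopHat2 2.0.9. The authors deposited raw read counts per gene symbol (HTSeq, strand option not given in the sources used here). FPKM per transcript, made by the authors with Cufflinks 2.1.1, were summed here to gene symbols.

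Full serum was tested on counts with edgeR 4.0.16 (quasi-likelihood test, TMM, filterByExpr, minimum count 10, minimum total 15). Stripped serum was tested with limma 3.58.1 on log2(FPKM + 1), keeping genes with 3 or more of the compared samples at 1 FPKM or above. Each fit held only its own groups. Calls needed an adjusted p (Benjamini-Hochberg, all genes tested) of 0.05 or less. CPM are counts scaled to normalized library sizes. The rule for values by sample was at most 8 members past the threshold with the largest absolute change in a comparison. Other members given with values by sample (ISG15 between the lines, IFITM3 with DHT, STAT2, IRF7, IRF9, IFI6 and OAS3 with JQ-1, the members that did not pass the filter, and those set side by side between sera) were chosen after their values were seen. Pathway and marker genes come from lists.

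The alternatives were no filter, at least 10 counts in every sample, DESeq2 1.42.0 size factors or its Wald test, limma on FPKM in full serum, log2(FPKM + 0.1), quantile normalization, a replicate block, all groups in a single fit, counts in stripped serum, and each replicate left out. In simulated data edgeR recovered 100 of 100 genes changed 4-fold and 97 of 100 changed 1.5-fold for enzalutamide in V16D cells (13998 genes, 5 unchanged genes called), and limma 100 and 83 of 100 for DHT (12060 genes, 22 unchanged called). Only genes above a minimum level were changed in the simulated data, and the spread between replicates was fixed. For DHT the simulated depth was taken from full serum. These rates therefore do not hold for members at low counts or low FPKM. Gene coordinates come from GENCODE release 44 on GRCh37, and promoters from RefSeq on GRCh38.p14. R 4.3.3 and Python 3.11.15 were used.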

Additional observations from a re-analysis of the deposited data

Results flagged for a closer look

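The results here concern members whose response differed between cell lines or between ligand settings by the test of the difference itself. In full serum 2 members had a more positive response to enzalutamide in MR49F than in V16D cells (edgeR), IFI44 by 1.02 and PARP9 by 0.30 on the log2 scale. Of 12 fits that each left out a replicate, 9 lost the IFI44 call and 7 the PARP9 call.

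In stripped serum 5 of 22 members changed differently with JQ-1 when enzalutamide was present (limma). This is near the background of 19.2% of all genes tested. The differences on the log2(FPKM + 1) scale were -0.45 for TRIM14, -0.40 for OAS3, 0.41 for ISG15, 0.40 for IRF7 and 0.40 for TRIM21. The ISG15 call was lost in 10 of 12 fits that each left out a replicate, without the filter and in a single fit of all groups, and the calls of the other 4 were lost in none of the 12. On the counts, however, none of the members passed this test in edgeR or DESeq2. When DHT was present 10 of 22 members changed differently with JQ-1, against 48% of all genes tested, so their share is near the background. The differences were 0.62 for PARP14, 0.53 for IFITM1, 0.50 for ISG15, 0.48 for TRIM21, 0.33 for IRF1, 0.32 for IFITM3, 0.24 for IFIH1, 0.23 for IRF7, -0.22 for EIF2AK2 and -0.25 for OAS3. With a replicate left out the calls were lost in 5 of 12 fits for ISG15, 4 of 9 for IFITM1, 3 of 12 for IFITM3 and 3 of 9 for IFIH1. The tests with enzalutamide and with DHT share the vehicle and JQ-1 samples.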

How the results depend on the processing

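The main fits did not pair samples by replicate number. In no comparison did every pair with the same number correlate above 0.1, and the mean correlation ranged from -0.137 to 0.146. With so few pairs this cannot exclude pairing, and the highest single correlation was 0.296, for JQ-1 against vehicle. With the replicate block 7 members passed in V16D cells with enzalutamide (7 without it), 4 in MR49F cells (3), 20 between the lines (21), and it moved no count of members by over 1.5 times. Enzalutamide in MR49F cells in full serum gave 3 members, 5 with all groups in a single fit, and 1 to 4 with a replicate left out (1 without any enzalutamide replicate or vehicle replicate 2). The line interaction gave 2 members, 1 in DESeq2, 0 of 26 in limma on FPKM (5 at an unadjusted p under 0.05), and 0 to 5 with a replicate left out: 0 without MR49F enzalutamide replicate 1 or 3 or V16D enzalutamide replicate 2 or 3 (7, 8, 10 and 8 unadjusted), 5 without MR49F vehicle replicate 1, and 1 without MR49F enzalutamide replicate 2, MR49F vehicle replicate 2 or any V16D vehicle replicate. In stripped serum the counts, which hold few reads, gave fewer members than FPKM in edgeR and DESeq2: 3 and 0 against 11 with enzalutamide (5 unadjusted in DESeq2), 6 and 4 against 16 with DHT, 12 and 12 against 20 with JQ-1, 4 and 4 against 13 for DHT against enzalutamide, 10 and 9 against 20 for JQ-1 with enzalutamide, 10 and 10 against 16 for JQ-1 with DHT, 0 and 0 against 5 for the enzalutamide interaction (3 and 2 unadjusted), and 2 and 0 against 10 for the DHT interaction (4 unadjusted in DESeq2). The cause was not tested. Over all genes the FPKM called 2389 to 9344 genes in these 8 comparisons, edgeR on counts 104 to 5891 and DESeq2 53 to 4539. In full serum enzalutamide in MR49F cells called 1181 genes, 2558 in a single fit and 575 in limma on FPKM. Without the filter on FPKM 20 members passed for DHT against enzalutamide and 30 for JQ-1 with DHT, since more members were tested. With at least 1.5-fold change, a cutoff added after the data were seen, 13 members passed with JQ-1 and 7 with DHT. Both counts include members that were not at 1 FPKM or more in every sample. With a replicate left out, 13 to 20 passed with JQ-1 (13 without any vehicle replicate) and 10 to 17 for JQ-1 with DHT (10 without any DHT replicate). In both of these fewer members passed the filter. OAS3 reversed in the DHT interaction on counts in edgeR (0.5528), and IFIH1 reversed with log2(FPKM + 0.1) (-0.16) and on counts in edgeR (-0.0544), none past the threshold; the cause was not tested. The depth of the counts in stripped serum limits which members can be tested there.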
